A study of Rattus norvegicus with 9 samples.

Results

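The heart muscle genes MYH6, MYH7, TTN and ANKRD1 were followed across cultured cardiac fibroblasts (CFs) of neonatal rats. They are 4 of the 22512 genes in the deposited table and were found by symbol, and they were chosen by their FPKM in these same libraries, where they stood out. Their levels, and their differences between the groups, are therefore given as a description, with no test. RNA-seq was available for 9 libraries, with 3 in each group. The blank group received no treatment, the AngII group received angiotensin II (AngII) at 0.1 µM for 72 h, and the vericiguat + AngII treatment group received vericiguat at 1.0 µM for 24 h and then AngII at 0.1 µM for 72 h. Vericiguat raises the activity of soluble guanylate cyclase, which produces the second messenger cGMP, and AngII is a peptide hormone used to activate CFs. All cells came from digested hearts by differential adherence and were used at the second or the third passage. The labels number the replicates and do not say whether each number is a separate culture.

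MYH6 and MYH7 encode the alpha and beta heavy chains of cardiac myosin, the motor of the thick filament. The alpha chain hydrolyses ATP faster, and the balance between both chains differs with species, age, chamber and thyroid hormone. Adult ventricles of rats hold mostly the alpha chain, and those of larger mammals, rabbits among them, mostly the beta chain. TTN encodes titin, the spring that spans the sarcomere from Z-disc to M-band. ANKRD1 encodes cardiac ankyrin repeat protein, which binds titin in the I-band and also enters the nucleus. It is expressed in heart muscle, answers to stretch and is also a target of YAP in other cells, fibroblasts included. Fibroblasts do not assemble sarcomeres.

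Expression is given as FPKM, fragments scaled to gene length and to the fragments mapped in the library, so levels of different genes can be compared per length. The 13 entries named KEF51 took up 96.7% to 97.9% of the summed FPKM in the blank and AngII libraries and 45.3% to 52.3% in the treated libraries. The sum over all other genes was 30992 to 57618 FPKM in the blank and AngII libraries and 426296 to 433771 FPKM in the treated libraries. The libraries of the treatment group therefore stand apart from the other 6 for nearly every gene. The third blank library also stands apart, because its FPKM lay between those of the other blank libraries for 84.2% of the 4796 genes above 0 in all 3. In the AngII and treatment groups, a library lay between the other two for 24.9% to 42.1% of such genes. Over 448 genes with at least 0.5 FPKM in each blank library, the third was at a median of 0.468 of the way from the second to the first (quartiles 0.396 and 0.554). It may therefore not be an independent library, in which case n = 3 and the SD of the blank group, and the p-values from limma, rest on fewer libraries than stated. Blank means of the members are hence given with and without it. Leaving 1 of 3 libraries out cannot move a difference by more than its within-group SD, so that comparison does not show how much rests on this library. The processing notes of the submitters name OryCun2.0, a rabbit assembly, while the labels give rat as the organism. Of the 20346 genes listed by a LOC number, none matched a rat gene in the RefSeq table (GRCr8). How the reference bears on the levels was not tested. In bulk RNA, fewer cells of a type and less RNA per cell cannot be told apart.

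MYH7 was the highest of the 4 genes in every library except the first AngII library, where ANKRD1 was higher. Its FPKM was 3.97, 1.38 and 2.45 in blank, 9.38, 55.7 and 20.7 after AngII and 4346, 3645 and 2766 after vericiguat and AngII, in library order. The groups did not overlap, and the second AngII library was far above the others of its group. Averaged, this was 2.60 ± 1.30 FPKM (SD, n = 3) in blank cells, or 2.68 without the third library, then 28.6 ± 24.2 (SD, n = 3) with AngII and 3586 ± 792 (SD, n = 3) for the treated cells. By rank, MYH7 was gene 199 to 377 of the table in the blank libraries, gene 28 to 183 in the AngII libraries and gene 16 to 20 in the treated libraries. It thus ranked above 98.3% or more of all listed genes in every library.

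MYH6 was the gene with the widest range. Its FPKM was 0.201, 0.016 and 0.05 in blank, 2.68, 44.9 and 4.67 after AngII and 482, 328 and 227 after vericiguat and AngII, in library order. Again the groups did not overlap and the second AngII library was the highest of its group. Averaged, this was 0.089 ± 0.0985 FPKM (SD, n = 3) in blank cells, 17.4 ± 23.8 (SD, n = 3) with AngII and 346 ± 128 (SD, n = 3) for the treated cells. Without the second AngII library the AngII mean was 3.68 FPKM, and without the third blank library the blank mean was 0.109 FPKM. The table holds no counts, but the low values show how few fragments stand behind MYH6 in the blank group. Genes with 0.1 to 1 FPKM gave the relative depth of the libraries as the most frequent ratio to the first blank library, which was 1.16 for the second blank library and 1.09 for the third. If 0.016 FPKM in the second blank library stands for 1 fragment, the first holds 10.8 and the third 2.94, and the AngII libraries hold 125, 1680 and 179. The depth ratio of the second blank library had a peak of nearly the same height at a factor of 2, with 66 genes against 67, so these fragment numbers are rough.

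TTN was the lowest of the 4 genes in 8 of the 9 libraries, all but the second blank library, where MYH6 was lower. Its FPKM was 0.044, 0.037 and 0.038 in blank, 0.147, 0.779 and 0.169 after AngII and 67.3, 75.3 and 70.5 after vericiguat and AngII, in library order. The second AngII library was once more the highest of its group, and TTN reached 1 FPKM only in the treatment group. Averaged, this was 0.0397 ± 0.00379 FPKM (SD, n = 3) in blank cells, or 0.0405 without the third library, then 0.365 ± 0.359 (SD, n = 3) with AngII and 71.0 ± 4.04 (SD, n = 3) for the treated cells. In deposited FPKM, TTN had the least spread of the 4 genes between blank libraries, where it differed by less than a factor of 2. Relative to the median expressed gene, defined below, it had the widest blank spread of the 4 for its mean. It was at 0.209 ± 0.177 (SD, n = 3) times that gene, from 0.0849 to 0.411.

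Of the members matched to a rat promoter window in RefSeq, only TTN has a window that reaches outside its gene. The part outside the gene is shown for that reason. The capitals mark a match to the binding motif of MEF2, a family of transcription factors of muscle. The stretch is chr3:82332131-82332360 of GRCr8, on the minus strand. It has 230 bases and leaves out the 20 bases nearest the start, which lie inside the gene.
Ttn: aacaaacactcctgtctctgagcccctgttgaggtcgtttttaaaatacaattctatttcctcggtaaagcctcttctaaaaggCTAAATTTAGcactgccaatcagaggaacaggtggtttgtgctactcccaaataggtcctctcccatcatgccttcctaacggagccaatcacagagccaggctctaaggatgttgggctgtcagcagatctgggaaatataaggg
Over both strands of the 250 bases before each start, 2.96% of 33469 rat windows hold a MEF2 match, 1.5% a CArG box (the site of SRF) and 12.1% the MCAT element CATTCC (the site of TEAD factors). The Ttn window holds 1 MEF2 match and neither of the others. The windows of Myh6 and Myh7 lie wholly inside their genes and are not printed. Neither holds a MEF2 match or a CArG box, and that of Myh6 holds 1 MCAT element, 23 bases before the start. A match is a run of letters and was not tested as a site, and the sequence is that of the labelled organism, not of the assembly in the processing notes.

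ANKRD1 differed from the myosins and titin in the AngII group. Its FPKM was 3.26, 0.346 and 1.195 in blank, 15.9, 10.1 and 18.5 after AngII and 1032, 1088 and 1031 after vericiguat and AngII, in library order. The groups did not overlap, but here the second AngII library was the lowest of its group rather than the highest. Averaged, this was 1.601 ± 1.5 FPKM (SD, n = 3) in blank cells, or 1.80 without the third library, then 14.8 ± 4.29 (SD, n = 3) with AngII and 1050.3 ± 32.8 (SD, n = 3) for the treated cells. In the treatment group its 3 values lay closer together than those of any other member, relative to their mean.

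**Figure D1:**
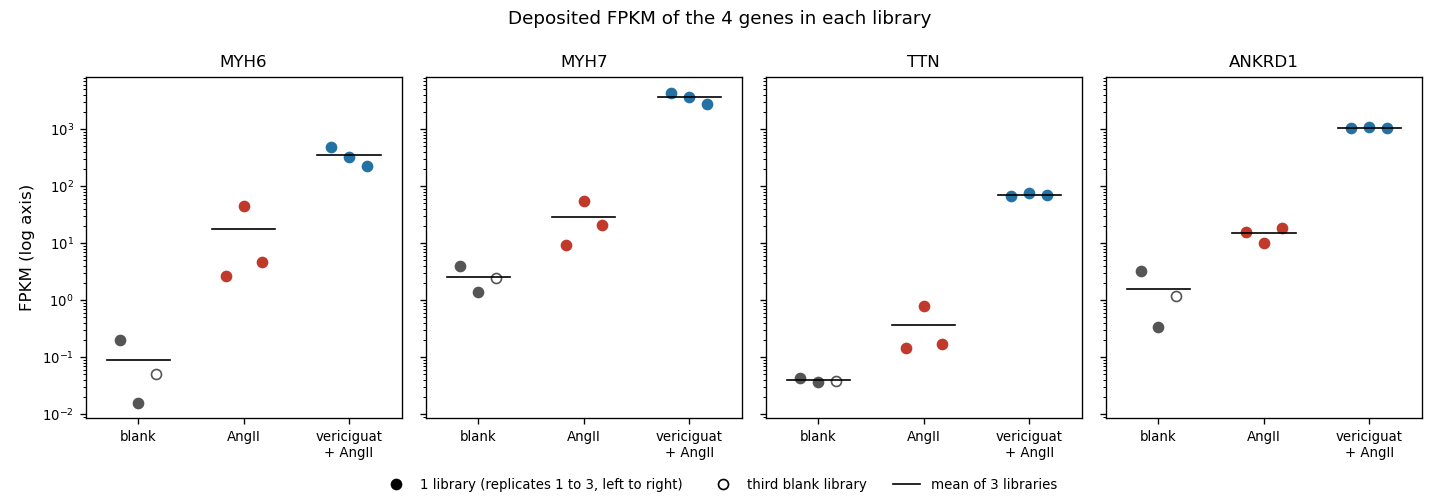
FPKM of MYH6, MYH7, TTN and ANKRD1 on a log axis, with 1 point per library (replicates 1 to 3 from left to right, the third blank library open) and a line at the group mean. For each gene the blank libraries are lowest and the treated libraries highest, with MYH7 at 1.38 to 3.97 and 2766 to 4346 FPKM, and the second AngII library is the highest of its group for MYH6, MYH7 and TTN and the lowest for ANKRD1.

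On the deposited scale, the higher level in the treated libraries is shared with nearly the whole table. Over the 10908 genes with at least 1 FPKM in at least 3 libraries, the AngII libraries were all above the blank libraries for 19.8%, the treated libraries all above the AngII libraries for 99.7% and above the blank libraries for 99.6%. Of these genes, 9821 (90%) passed that minimum only through the treated libraries. All 4 members were in the set, TTN only through the treatment group, and all 4 had that order in each comparison. The values used to choose the members fix these counts, so they are given as a description. Levels were therefore set against the median expressed gene, taken as the median FPKM of the 3813 genes outside the KEF51 entries that were above 0 in all 9 libraries. That median was 0.09 to 0.518 FPKM in the blank libraries, 0.308 to 0.497 FPKM in the AngII libraries and 15.2 to 16.8 FPKM in the treated libraries. Levels were also given as a percentage of GAPDH, a glycolytic enzyme often used to scale expression. The FPKM of GAPDH was 65.4, 16.7 and 37.5 in blank, 62.7, 88.5 and 116 after AngII and 3199.6, 3342 and 2604 after vericiguat and AngII, in library order.

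MYH7 kept its order on both relative scales. It was at 7.67, 15.4 and 8.42 times the median expressed gene in the blank libraries, at 30.5, 112 and 60.7 times in the AngII libraries and at 259, 240 and 182 times in the treated libraries. As a percentage of GAPDH it was at 6.08, 8.29 and 6.53 in the blank libraries, at 15.0, 63.0 and 17.8 in the AngII libraries and at 136, 109 and 106 in the treated libraries. In every treated library MYH7 thus exceeded GAPDH, and in no other library did it do so. The log2 difference relative to the median gene was 2.57 for AngII against blank, 1.92 for the treatment group against AngII and 4.49 for the treatment group against blank, with within-group SDs of 0.77, 0.69 and 0.43. The corresponding share of the tested genes whose groups did not overlap, in the higher direction, was 17.7%, 29.3% and 49.5% on the scale of the median gene. It was 11.1%, 31.1% and 38.4% on the scale of GAPDH.

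MYH6 did not keep its order. Relative to the median gene it was at 0.388, 0.178 and 0.172 in the blank libraries, at 8.71, 90.3 and 13.8 in the AngII libraries and at 28.6, 21.6 and 15.0 in the treated libraries. The blank libraries lay far below the others, while the AngII and treated libraries overlapped, with the second AngII library highest of all. Relative to GAPDH it was at 0.307%, 0.0959% and 0.133% in the blank libraries, at 4.28%, 50.7% and 4.03% in the AngII libraries and at 15.1%, 9.81% and 8.73% in the treated libraries. The log2 difference relative to the median gene was 6.60 for AngII against blank (within-group SD 1.35) and 6.53 for the treatment group against blank (0.58), but -0.08 for the treatment group against AngII (1.31). The last value was 0.94 without the second AngII library, and relative to GAPDH it was 0.19 with all libraries and 1.39 without that library. Its sign changed with single libraries on both scales. Relative to the median gene it was also positive without the third treated library (0.17), and relative to GAPDH it was negative without the first AngII library (-0.39), the third AngII library (-0.44) or the first treated library (-0.05).

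Of the 4 members, TTN was the one that differed most between the treatment group and AngII relative to the median gene, with a log2 difference of 2.65 (within-group SD 0.70). It was at 0.0849, 0.411 and 0.131 times the median gene in the blank libraries, at 0.477, 1.57 and 0.497 times in the AngII libraries and at 4.0, 4.95 and 4.64 times in the treated libraries. All blank and AngII values except that of the second AngII library lay below the median gene, and all treated values above it. Relative to GAPDH it was at 0.0673%, 0.222% and 0.101% in the blank libraries, at 0.234%, 0.880% and 0.146% in the AngII libraries and at 2.10%, 2.25% and 2.71% in the treated libraries. On that scale the blank and AngII groups overlapped, since the second blank library was above the third AngII library.

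ANKRD1 was at 6.30, 3.84 and 4.11 times the median gene in the blank libraries, at 51.7, 20.3 and 54.3 times in the AngII libraries and at 61.4, 71.6 and 67.9 times in the treated libraries. The step from blank to AngII was the larger, with a log2 difference of 3.06 (within-group SD 0.63), against 0.80 (0.57) from AngII to the treatment group. Without the second AngII library the latter came to 0.34, with AngII values of 51.7 and 54.3 against a lowest treated value of 61.4. Relative to GAPDH, ANKRD1 was at 4.99%, 2.07% and 3.19% in the blank libraries, at 25.4%, 11.4% and 15.9% in the AngII libraries and at 32.3%, 32.6% and 39.6% in the treated libraries. The groups did not overlap on either scale.

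**Figure D2:**
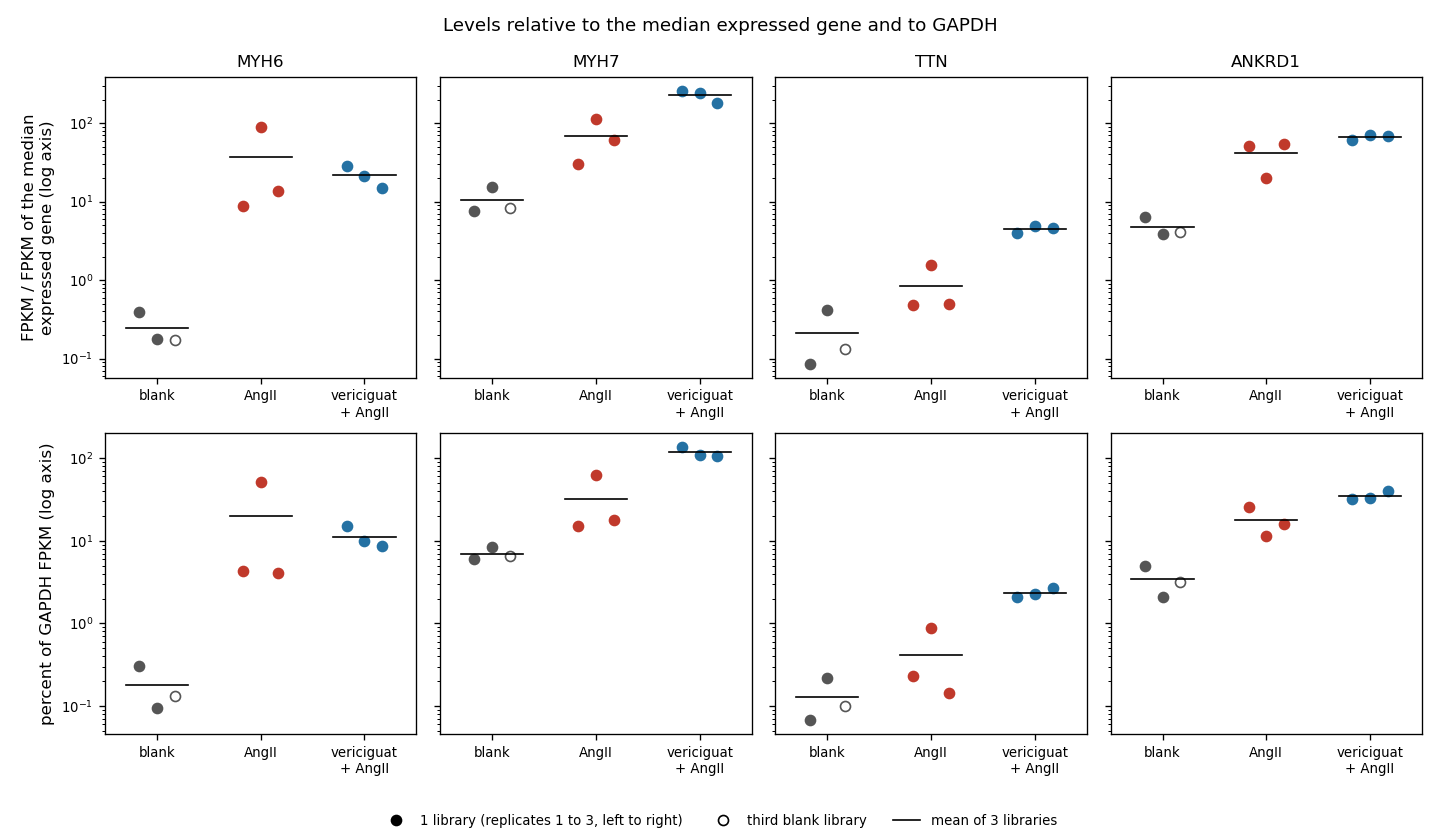
FPKM of each member divided by that of the median expressed gene (top) and as a percentage of GAPDH (bottom) on log axes, with 1 point per library and a line at the group mean. MYH6 in the AngII libraries (8.71 to 90.3 times the median gene) spans its treated libraries (15.0 to 28.6 times), whereas MYH7 and ANKRD1 stay separated in all 3 groups. In single comparisons, 17.7% to 49.5% (median gene) and 11.1% to 38.4% (GAPDH) of all tested genes were separated in the higher direction.

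Set among the 3813 genes, the median log2 difference relative to the median gene was 0.07 for AngII against blank, 0.01 for the treatment group against AngII and 0.14 for the treatment group against blank. For AngII against blank, 1 gene was above MYH6, 70 above ANKRD1, 146 above MYH7 and 252 above TTN. For the treatment group against AngII, 45 genes were above TTN, 187 above MYH7, 941 above ANKRD1 and 2033 above MYH6. Within this set, MYH6 was thus among the most different genes in the former comparison and in the middle of the distribution in the latter. For the treatment group against blank no gene of the set was above MYH6, and 6, 13 and 23 genes were above TTN, MYH7 and ANKRD1. Genes at 0 FPKM in any library cannot appear in this ranking. The members were chosen by these values, and MYH6 rests on few fragments in blank, so the ranks are a description. The comparisons share libraries, so their values are given side by side and not as separate evidence.

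**Figure D3:**
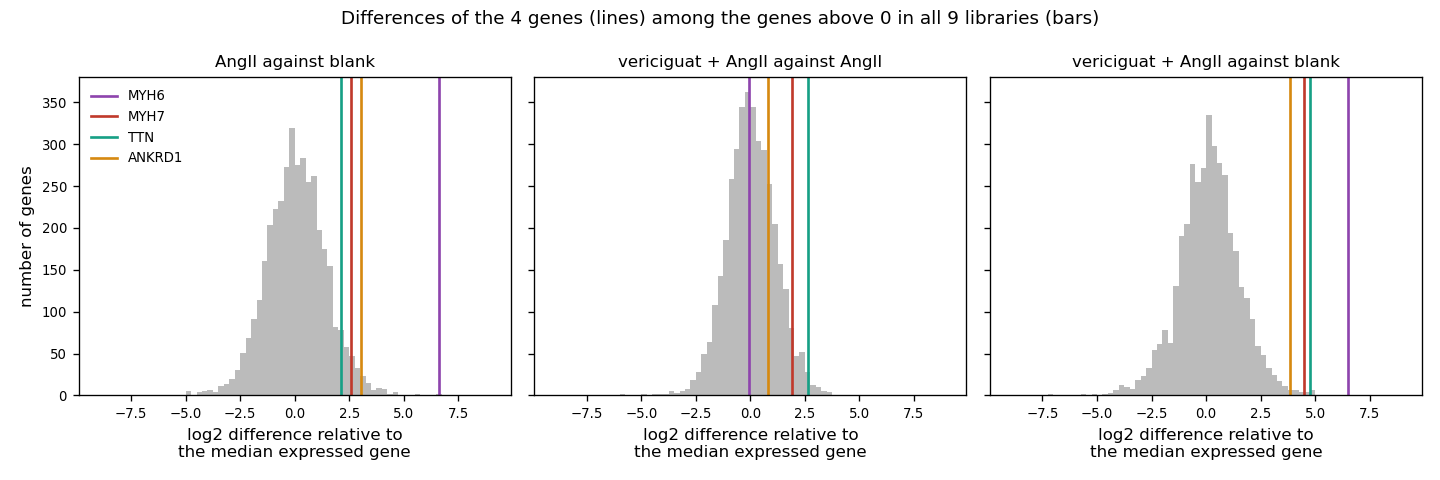
Number of genes by log2 difference relative to the median expressed gene in each comparison, for the 3813 genes above 0 in all 9 libraries (bars of width 0.25), with a line for each member. The lines lie at 2.12 to 6.60 for AngII against blank (where TTN, the lowest, is below the 95th percentile of 2.35), at -0.08 to 2.65 for the treatment group against AngII and at 3.85 to 6.53 for the treatment group against blank, where the 95th percentile is 2.38.

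The ratio of alpha to beta myosin needs no scaling between libraries. MYH6 was at 0.0506, 0.0116 and 0.0204 of MYH7 in the blank libraries, at 0.286, 0.806 and 0.226 in the AngII libraries and at 0.111, 0.0900 and 0.0822 in the treated libraries. The beta chain led in all 9 libraries, and the 3 groups did not overlap, in the order blank, treatment, AngII. How many other genes separate the groups by their ratio to MYH7 was not counted, so this order is a description. The mean ratio was 0.0275 ± 0.0205 (SD, n = 3) in blank cells, 0.439 ± 0.319 (SD, n = 3) with AngII and 0.0943 ± 0.0148 (SD, n = 3) for the treated cells. Without the second AngII library the AngII mean was 0.256, still above the highest treated value, and without the third blank library the blank mean was 0.0311. As a share of both chains, MYH6 made up 1.14% to 4.81% in the blank libraries, 18.5% to 44.6% in the AngII libraries and 7.60% to 9.97% in the treated libraries. Both genes are neighbours of nearly the same coding sequence, so fragments can be split between them by the counting, and the blank ratios rest on the few MYH6 fragments given above.

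The other ratios separated the groups less. TTN was at 0.0111, 0.0267 and 0.0155 of MYH7 in the blank libraries, at 0.0157, 0.0140 and 0.00818 in the AngII libraries and at 0.0155, 0.0207 and 0.0255 in the treated libraries. These groups overlapped, and the ratio ran from 0.00818 to 0.0267 over all libraries. The range of MYH7 itself, 1.38 to 4346 FPKM, includes the shift in FPKM shared by nearly every gene. How many other genes keep as steady a ratio to MYH7 was not counted. ANKRD1 was at 0.821, 0.250 and 0.488 of MYH7 in the blank libraries, at 1.70, 0.181 and 0.894 in the AngII libraries and at 0.237, 0.299 and 0.373 in the treated libraries. These groups overlapped too, with the highest and the lowest value both in the AngII group.

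**Figure D4:**
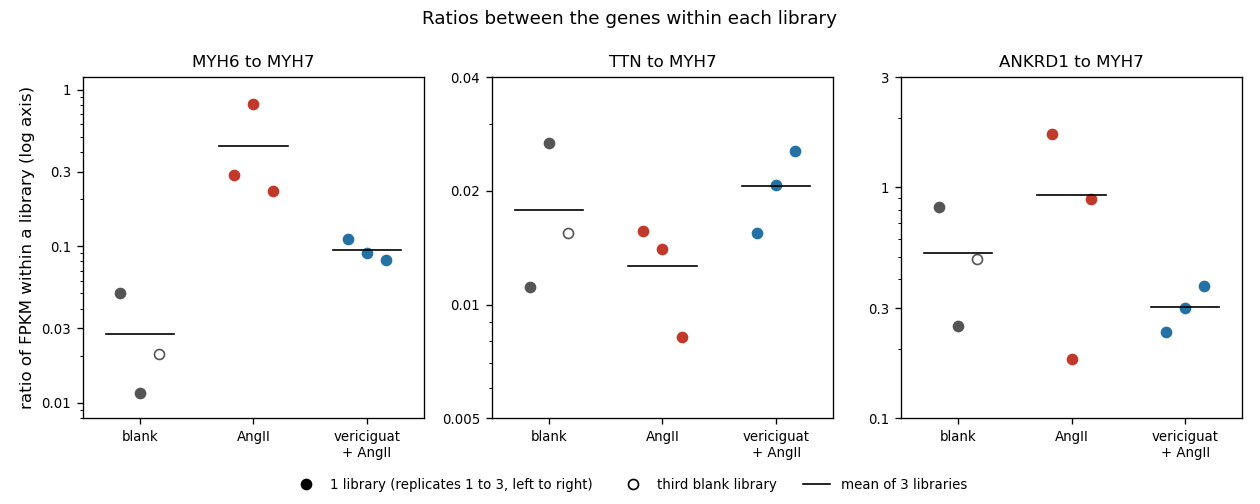
FPKM of MYH6, TTN and ANKRD1 divided by that of MYH7 in the same library, each on its own log axis, with 1 point per library and a line at the group mean. The MYH6 to MYH7 ratio separates the blank (0.0116 to 0.0506), treated (0.0822 to 0.111) and AngII libraries (0.226 to 0.806), and the ratios of TTN and ANKRD1 overlap between groups.

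Markers of the labelled cell type were set beside the members in the same libraries. Of 15 fibroblast markers, 4 are listed by symbol, namely the collagen gene COL1A2, the proteoglycan genes DCN and LUM, and FN1, which encodes fibronectin. Their summed level was 24.7, 1.70 and 12.6 FPKM in the blank libraries, 25.7, 7.09 and 19.2 FPKM in the AngII libraries and 527, 402 and 368 FPKM in the treated libraries. DCN alone made up 51.5% to 76.5% of the sum. MYH7 was at 0.161, 0.812 and 0.194 of that sum in the blank libraries, at 0.365, 7.85 and 1.07 in the AngII libraries and at 8.25, 9.06 and 7.52 in the treated libraries. The second AngII library, low in fibroblast markers and highest of its group in MYH7, reached the ratio of the treated libraries. The other 2 AngII libraries remained near the blank range. Against COL1A2 alone, MYH7 was at 5.69, 23.1 and 5.52 times in the blank libraries, at 1.83, 184 and 11.7 times in the AngII libraries and at 289, 225 and 212 times in the treated libraries. On that ratio the first AngII library lay below all blank libraries, so the blank and AngII groups overlapped. MYH6 was at 0.00397 to 0.00939 of the sum in the blank libraries, at 0.104, 6.33 and 0.243 in the AngII libraries and at 0.618 to 0.914 in the treated libraries. ANKRD1 separated the groups here as well, at 0.0949 to 0.203, 0.618 to 1.42 and 1.96 to 2.80 of the sum. TTN was at 0.00178 to 0.0217, 0.00571 to 0.11 and 0.128 to 0.192. How many other genes separate the groups on this scale was not counted. The part of the fibroblast marker level in these ratios was not tested.

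**Figure D5:**
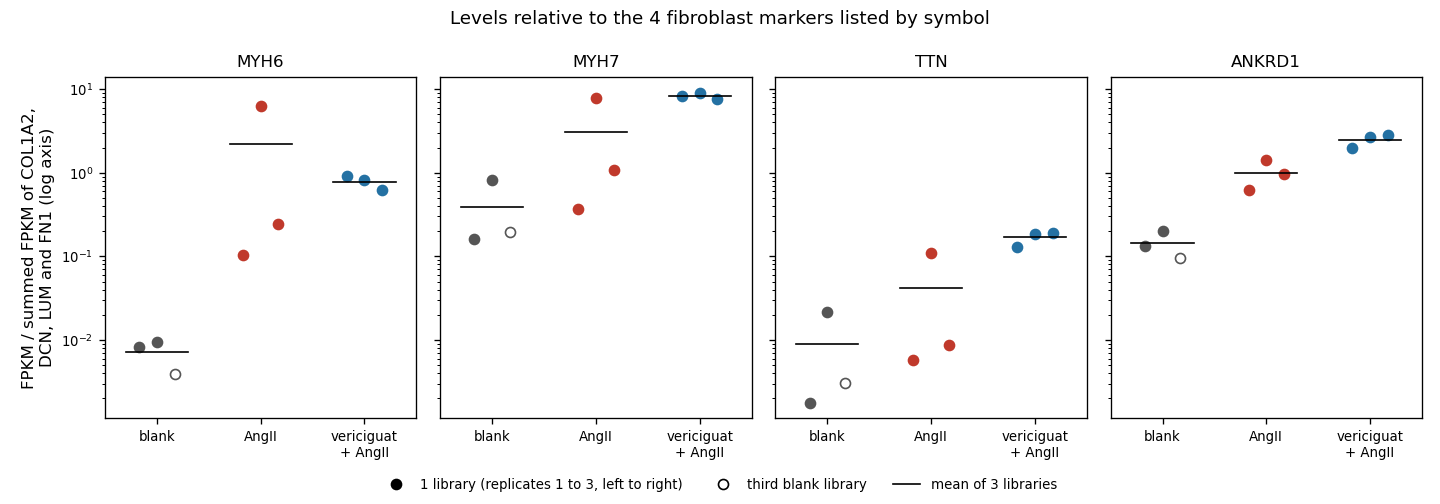
FPKM of each member divided by the summed FPKM of COL1A2, DCN, LUM and FN1 in the same library, on a log axis, with 1 point per library and a line at the group mean. The second AngII library lies above the treated libraries for MYH6 (6.33 against 0.618 to 0.914) and within their range for MYH7 (7.85 against 7.52 to 9.06). It lies below them for TTN (0.11 against 0.128 to 0.192) and for ANKRD1 (1.42 against 1.96 to 2.80).

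Among the cardiomyocyte markers that are no members, 3 of 11 are listed by symbol. PLN, which encodes the calcium pump inhibitor phospholamban, was at 835 ± 276 FPKM (SD, n = 3) with vericiguat and AngII, and RYR2, the gene of the calcium release channel, was at 21.9 to 31.6 FPKM. NPPA, which encodes the atrial natriuretic peptide, is also the 1 listed gene of 11 heart transcription factors and natriuretic peptides. It was listed at 0 in 6 of the 9 libraries and at no more than 0.449 FPKM in any. MYH7 was at 119 to 167 times RYR2 in the treated libraries, within the 71.6 to 248 times seen in the AngII libraries. TTN, at 2.13 to 3.44 times RYR2, overlapped with its blank range of 2.44 to 3.70 and its AngII range of 1.12 to 3.46.

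The rest of the contractile apparatus is thinly covered, since most genes of the table carry only a LOC number. Of 36 genes of the sarcomere and Z-disc besides the members, 3 are listed by symbol. TPM1 encodes a tropomyosin of the thin filament, DES the intermediate filament desmin, and CRYAB a small heat shock protein that binds desmin and titin. They were at 3.81, 2.33 and 17.9 FPKM on average in the blank group (3.81, 2.33 and 18.1 without the third library), at 8.99, 5.12 and 34.8 FPKM in the AngII group and at 368, 311 and 2698 FPKM in the treatment group. None is confined to heart muscle. Genes were called by limma on log2(FPKM + 1) when the fitted difference reached 1 on the log2 scale, in either direction, with a Benjamini-Hochberg adjusted p under 0.05. By this rule limma called 0 of the 3 for AngII against blank, where it called 1.55% of all tested genes and where 1567 of the tested genes were under 0.05 before adjustment. Each of the 3 was called higher with vericiguat in both comparisons, as part of 99.6% and 99.4% of all tested genes called there. After scaling each library by its median ratio over the genes above 0 in all 9 libraries, 0, 0 and 2 of the 3 were called in these comparisons, against 8.4%, 4.17% and 9.55% of all genes. The 2 called higher against blank were CRYAB (log2 fold change 1.24, adjusted p = 0.0363 from limma) and DES (1.19, adjusted p = 0.0313 from limma).

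Genes of calcium cycling and excitation are better covered, with 16 of 18 listed and 14 tested. In the deposited FPKM, 3 of the 14 were called higher for AngII against blank, beside 1.44% of all tested genes in that direction. These were the genes of cardiac calsequestrin (CASQ2), triadin (TRDN) and the histidine-rich calcium binding protein (HRC), of which TRDN and HRC are named after their values were seen. None of the 14 was called when the first or the third blank library, the third AngII library or any 1 treated library was left out, and without the third blank library no gene of the whole table was called (993 had an unadjusted p below 0.05). Each of the 14 was called higher with vericiguat in both comparisons, as were 99.5% and 99.3% of all genes. With median-ratio scaling, 5 of 14 were called higher for AngII against blank (5.17% of all genes), 2 higher and 1 lower for the treatment group against AngII (4.17% in either direction), and 7 higher for the treatment group against blank (6.12% of all genes). Of the 14 genes, 9 passed the minimum of 1 FPKM only through the treated libraries, and so did 4 of the 7 called higher against blank, so these counts are a description. With that scaling and 1 library left out at a time, 4 to 5, 1 to 4 and 6 to 7 genes were called. CASQ2, which rose in all 3 comparisons on both scales, had median-ratio scaled log2 fold changes of 1.76, 1.02 and 2.78 (adjusted p = 0.00342, 0.0312 and 0.000228 from limma). ATP2A2, the calcium pump of the sarcoplasmic reticulum, had values of 1.29, 0.86 and 2.15, of which the middle one was not called (adjusted p = 0.145 from limma). PLN was called in none of the 3 with that scaling, at 1.15, 0.06 and 1.21.

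Genes of skeletal muscle that are listed by symbol, not all of them of the sarcomere, stayed under 1 FPKM in every library. Of 19 such genes 8 are listed, and none passed the minimum of 1 FPKM in 3 libraries. The highest were NEB, which encodes nebulin and reached 0.838 to 0.974 FPKM in the treated libraries, then ATP2A1 at 0.186 to 0.458 FPKM there, and TNNC2 at no more than 0.24 FPKM in any library. The myosin genes MYH3 and MYH13 were above 0 in 1 treated library each, at 0.021 FPKM, and MYH4 was listed at 0 throughout. These 3 were named after their values were seen. The high myosin levels thus belonged to the cardiac genes among the myosin heavy chains of striated muscle listed by symbol. Of 10 further relatives of ANKRD1 and binding partners of titin, CAPN3 (calpain 3) is the 1 listed, at 0 in all blank and AngII libraries and at 1.45 to 1.89 FPKM in the treated libraries.

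ANKRD1 is also counted among the targets of SRF and YAP. Of 18 others, 5 are listed and tested, namely ACTA2 (smooth muscle actin), TPM2 (a tropomyosin), the matricellular genes CCN1 and CCN2, and F3 (tissue factor). None was called for AngII against blank in the deposited FPKM, and each of the 5 was called higher with vericiguat in both comparisons, as were 99.5% and 99.3% of all tested genes. CCN1, CCN2 and F3 passed the minimum of 1 FPKM only through the treated libraries, so their calls are a description. With median-ratio scaling, 3.23% of all tested genes were called lower for AngII against blank. CCN2 and ACTA2 fell in the AngII group, with log2 fold changes of -2.13 and -2.47 (adjusted p = 0.0121 and 0.0394 from limma), where ANKRD1 was higher. The ACTA2 groups overlapped, however. Its scaled FPKM was 16.85, 2.66 and 14.62 in blank and 3.48, 0 and 0.343 after AngII, in library order. TPM2, CCN1 and F3 were not called for AngII against blank, at -1.94, -0.43 and 1.40, so F3 lay in the other direction. The ratio of ANKRD1 to CCN2 was 0.289 to 0.975 in the blank libraries, 17 to 36.1 in the AngII libraries and 29.7 to 55.0 in the treated libraries. ACTA2 was higher again in the treatment group than in AngII (2.80, adjusted p = 0.0211 from limma), and CCN2 stayed lower than in blank (-1.99, adjusted p = 0.0073 from limma).

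Markers of the labelled cell type and of other cells were read in the same way. With median-ratio scaling, the share of all tested genes called higher was 5.17% for AngII against blank, 2.33% for treated cells against AngII and 6.12% for treated cells against blank. The share called lower was 3.23%, 1.84% and 3.43%. None of the 4 fibroblast markers was called in any comparison, with log2 fold changes from -0.70 to 1.34 for AngII against blank, from -1.53 to 0.07 for the treatment group against AngII and from -0.63 to -0.19 for the treatment group against blank. The 2 listed of 9 endothelial markers, VWF and KDR, were both called higher with vericiguat, at 1.47 and 1.66 against AngII (adjusted p = 0.00102 and 0.000522 from limma). Both passed the minimum of 1 FPKM only through the treated libraries, so these calls are a description. KDR had 0 FPKM in every blank library and 39.3 to 50.3 FPKM in the treated libraries. Of 10 smooth muscle and pericyte markers 4 are listed, and MYH11 and ACTA2 fell in AngII against blank, at -2.96 and -2.47 (adjusted p = 0.024 and 0.0394 from limma). For ACTA2 these groups overlapped, since the second blank library was below the first AngII library. ACTA2 rose in the treatment group against AngII and DES against blank, and MYLK was called in none. MYH11 and MYLK passed the minimum of 1 FPKM only through the treated libraries, so the call of MYH11 is a description. The haemoglobin genes HBA and HBB2, the 2 listed of 9 red cell markers, were called in none, but their levels were high. HBA was at 137.5 to 352.8 FPKM in blank, 116.9 to 203.5 FPKM in AngII and 6390.5 to 11627.9 FPKM in the treated libraries, above all 4 members in every library. HBB2 was at 16.4 to 44.9, 87.1 to 129.5 and 1973.6 to 4507.1 FPKM in these groups. No macrophage marker of 10 is listed. Of the 6 reference genes listed of 14, GAPDH was called in no comparison with that scaling, nor was EEF1A1, the gene of a translation factor. ACTB, the gene of cytoskeletal actin, fell in AngII against blank at -2.14 (adjusted p = 0.0094 from limma) and rose in the treatment group against AngII at 1.69 (adjusted p = 0.0213 from limma). SDHA, named after its values were seen, rose in AngII and in the treatment group against blank, at 1.71 and 2.47 (adjusted p = 0.0112 and 0.00084 from limma). The part of these cells in the levels of MYH6, MYH7, TTN and ANKRD1 was not tested.

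The genes with a symbol whose pattern was nearest to each member were found over the 9 libraries, by the root mean square difference of centred log2(median-ratio scaled FPKM + 1) among 885 tested genes above 0 in at least 6 libraries. For MYH7 these were the mitochondrial creatine kinase gene CKMT2 (0.693 log2 units), CASQ2 (0.81) and SDHA, a subunit of succinate dehydrogenase (0.883). For ANKRD1 they were CKMT2 (0.396), the ATP synthase gene ATP5F1A (0.401) and CASQ2 (0.6). CKMT2 had 0 FPKM in every blank library, 1.25 to 1.96 FPKM in the AngII libraries and 114 to 240 FPKM in the treated libraries. For TTN they were the anion exchanger gene SLC4A3 (0.158), KDR (0.279) and the creatine transporter gene SLC6A8 (0.376). SLC4A3 was listed at 0.026 to 0.089, 0.166 to 1.12 and 69.1 to 81.3 FPKM, also with the second AngII library highest of its group. MYH6 had no close match, the nearest being DBI (1.03), SLC12A7 (1.06) and MYH7 itself (1.07). The members differed from each other by 0.975 (MYH7 and TTN) to 1.66 (MYH6 and TTN). All patterns share the same libraries and depth, and the added 1 flattens the differences of low genes such as TTN.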

How the data were processed

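RNA of 9 libraries was measured by RNA-seq, and the authors deposited gene expression as FPKM in a single table with 1 column per library. They removed reads of low quality, compared the rest with a reference genome and added predicted coding transcripts. The submitters' processing notes name FastQC 0.11.9, Trimmomatic 0.39, HISAT2 2.2.1, featureCounts 2.0.1 and the build OryCun2.0. Counts and depths are not given, so no interval for counting error can be had. Groups were taken from the sample titles. Tests used limma 3.58.1 in R 4.3.3 (lmFit, eBayes with trend) on log2(FPKM + 1) in all 9 libraries with no covariate, over genes with at least 1 FPKM in at least 3 libraries, since FPKM are no counts. The scripts were tested on simulated data. Fold changes on that scale understate the change of low genes, and p-values measure the spread between these libraries, which may be technical. Relative levels used no pseudocount. The members, the 13 gene lists and the rule for named genes (all listed where 5 or fewer are listed, otherwise the 3 highest by mean FPKM, and the 3 nearest patterns) were chosen with earlier results of these data known. Genes were matched by symbol with case ignored. Promoter windows are from RefSeq (GRCr8), and 3 of the 4 members were matched to a window in the table used here. Alternatives were another pseudocount, no filter, 2 scalings, other denominators, the replicate block and each library left out.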

Additional observations from a re-analysis of the deposited data

How the results depend on the processing

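The FPKM table gives no depth, so the low blank values of MYH6 and TTN carry a counting error that is not known. Where values shifted, the cause was not tested. A pseudocount of 0.1 in place of 1 moved the log2 difference of MYH6 to 5.60 (AngII against blank) and 10.89 (treatment against blank), and those of TTN to 1.47, 7.52 and 8.99 in the 3 comparisons (AngII against blank, treatment against AngII, treatment against blank). It moved ANKRD1 to 3.54 for AngII against blank, and MYH7 and ANKRD1 to 10.47 and 9.72 for treatment against blank. With the median taken over the genes above 0 in each library, the relative differences for treatment against AngII and against blank were 2.98 and 5.83 for MYH7, 3.71 and 6.11 for TTN and 1.85 and 5.19 for ANKRD1. For MYH6 they were 0.98, where the sign turned, and 7.86. With the geometric mean of the other reference genes in place of GAPDH, MYH6 was at -0.57 for treatment against AngII, where the sign turned, and at 5.36 against blank. MYH7 and TTN were then at 3.33 and 3.60 against blank, and ANKRD1 at 0.30 against AngII and 2.69 against blank. With each library left out in turn, MYH6 for treatment against AngII ran from -0.75 to 0.94 relative to the median gene and from -0.44 to 1.39 relative to GAPDH, and no other member difference changed sign. The mean MYH6 to MYH7 ratio then ran from 0.016 to 0.0355 in blank, from 0.256 to 0.546 in AngII and from 0.0861 to 0.1 in the treatment group. Leaving 1 of 3 libraries out cannot move a mean by more than 1 SD, so these ranges are a description. Taken as a ratio of summed FPKM, it stayed within 1 SD of its group mean. With median-ratio size factors in place of the median, the differences of all 4 genes stayed within 1 within-group SD.

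Of all tested genes, 169 were called for AngII against blank (157 higher, 12 lower). This was 969 with the pseudocount of 0.1, 79 with no filter, 916 with median-ratio scaling (564 higher, 352 lower) and 698 scaled to the sum outside KEF51 (585 higher, 113 lower). With each library left out it ran from 0 (without the third blank library) to 309 (without the second), at 29 without the third AngII library and 2, 2 and 18 without the first, the second or the third treated library. With the replicate number as a block it was 7. Deviations of same-numbered libraries from their group means correlated at -0.062 to 0.065. Whether these libraries share a culture cannot be told from this, since the added 1 flattens the low genes of the blank and AngII libraries. With the block, 0 of the 14 calcium cycling genes were called for AngII against blank in place of 3 (1 with no filter). The block moved no count of calls in the other comparisons by over 1.5 times. Median-ratio scaling gave 455 and 1042 genes for treatment against AngII and against blank, in place of 10869 and 10845, and left 0 of the 3 other sarcomere and Z-disc genes called for treatment against AngII.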
